A study of Mus musculus with 12 samples.

Results

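Expression of endoplasmic reticulum (ER) chaperone and stress genes was measured in the dorsal meninges, the membranes that line the skullcap, of young and aged male mice after a mild traumatic brain injury (TBI) or a sham procedure. The genes were taken by name from a table of raw RNA sequencing counts with 55385 rows, and all 10 of them were among the 18238 genes tested. Proteins of the ER lumen are encoded by 8 of the 10, namely Hspa5, Hsp90b1, Calr, Pdia4, Pdia6, Sdf2l1, Creld2 and Manf. The remaining 2, Atf4 and Ddit3, encode transcription factors of the stress response. Aged TBI and Aged Sham mice were C57BL/6 males 20 to 24 months old supplied by the National Institute on Aging. Young TBI and Young Sham mice were C57BL/6J males 10 weeks old from a commercial supplier, so age and supplier cannot be told apart. All mice were sampled 1.5 months after a closed-skull impact over the right inferior temporal lobe or after the sham procedure. Sham mice were anaesthetised and placed under the impactor, which was released at a height that gave no impact. The site of impact was not part of the tissue. Each group had 3 libraries, each made from the pooled meninges of several mice, and p-values measure the spread between these pools. Levels are CPM, counts scaled by the effective library size, and all changes are log2 fold changes ± standard error.

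Secreted and membrane proteins enter the ER unfolded, and lumenal chaperones, disulfide isomerases and glycan-binding proteins fold them before export. When unfolded proteins accumulate, the sensors IRE1, ATF6 and PERK start the unfolded protein response. IRE1 and ATF6 raise chaperone transcription through spliced XBP1 and cleaved ATF6, whereas PERK slows translation and favours synthesis of ATF4, which can induce CHOP, the product of Ddit3. Meningeal fibroblasts, which secrete collagen, and plasma cells, which secrete antibody, both carry heavy loads of such proteins.

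Promoters were searched for the ER stress element, which was taken as CCAAT and CCACG separated by any 9 bases on either strand, in windows running from 250 bases before to 50 bases after each gene start (RefSeq, GRCm38.p6). This element is known to be bound by NF-Y together with ATF6. It occurred in 5 of the 9 members with a promoter sequence, Hspa5, Hsp90b1, Calr, Pdia6 and Creld2, against 37 of 27025 genes (0.137%). The stretches below show these matches as a description. The members were chosen as chaperone and stress genes, and ATF6 raises chaperone transcription. The share of members with the element is therefore not independent of their choice and tests nothing. Capitals mark the fixed letters of the element, and each stretch is written 5′ to 3′ on the strand of its gene.
Hspa5, chr2:34772015-34772053, plus strand: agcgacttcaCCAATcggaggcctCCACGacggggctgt
Hsp90b1, chr10:86705523-86705666, minus strand: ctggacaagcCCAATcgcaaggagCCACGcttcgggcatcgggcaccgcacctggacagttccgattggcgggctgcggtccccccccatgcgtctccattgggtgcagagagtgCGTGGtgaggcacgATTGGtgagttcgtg
Calr, chr8:84847065-84847103, minus strand: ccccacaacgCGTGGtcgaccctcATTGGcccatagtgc
Pdia6, chr12:17266481-17266519, plus strand: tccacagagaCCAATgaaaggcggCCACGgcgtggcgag
Creld2, chr15:88819510-88819548, plus strand: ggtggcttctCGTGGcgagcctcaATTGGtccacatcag
Hsp90b1 held 2 matches, the first on its own strand and the other on the opposite strand, where the element reads as its reverse complement. In Calr and Creld2 the match also lay on the opposite strand. A second form of the element (ATTGG and CCACG separated by any 1 base, 0.0444% of genes), the unfolded protein response element (TGACGTGG, 0.714% of genes) and the core of the amino acid response element bound by ATF4 (TGATGNAA, 4.51% of genes) matched none of the 9 windows on either strand. No promoter sequence was used for Manf.

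Total counts per library ranged from 8092374 to 16087717. Markers of the labelled tissue were present in each library, with 13 fibroblast genes summing to between 3020 and 4296 CPM and 13 arachnoid and pial genes to between 1196 and 1423 CPM, none at 0. A few libraries stood apart in markers of neighbouring tissue. Bone markers (12 genes) summed to 5728 CPM in Aged Sham 3, against 1330.0 to 2139 CPM in the other libraries, and pituitary markers to 1046 CPM, against 4.36 to 16 CPM. Skeletal muscle markers reached 1696 CPM in Aged TBI 2 and 436 CPM in Young TBI 3, against 15.7 to 53.8 CPM elsewhere. Results of the members whose call changed without these 3 libraries together are given with and without them. Calls of the other named genes and of the gene lists were not compared in this way.

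Levels between genes were compared only per length, as CPM per kilobase of annotated exon. Calreticulin (Calr) had the highest median over the 12 libraries, 262 CPM per kilobase, followed by Hspa5 with 144. Hsp90b1 (92.2), Pdia6 (73.7), Pdia4 (71.3) and Atf4 (59.3) came next, then Creld2 (42.4), Sdf2l1 (27.2), Manf (16.4) and Ddit3 (14.7). Among neighbours in this order, the ranges over libraries overlapped for Hsp90b1 and Pdia6, Pdia6 and Pdia4, Pdia4 and Atf4, Sdf2l1 and Manf, and Manf and Ddit3. Pdia6 exceeded Pdia4 in 9 of 12 libraries and Manf exceeded Ddit3 in 10 of 12, whereas every other neighbour was ordered the same way in at least 11 of 12.

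**Figure D1:**
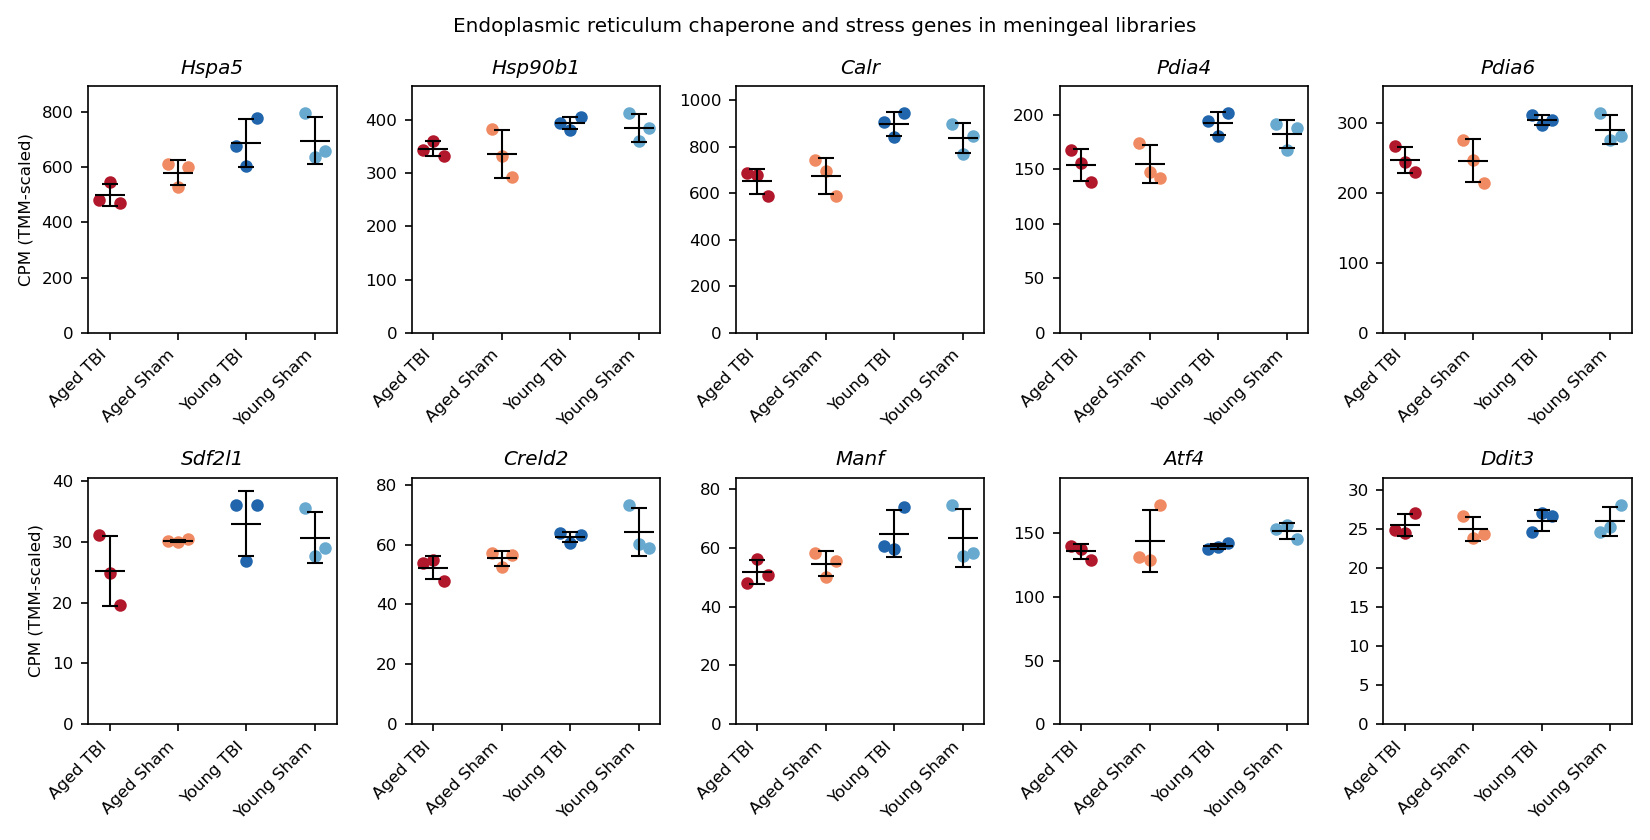
Level of each of the 10 genes in every library, in CPM scaled by the effective library size (vertical axis from 0), with the 4 groups along the horizontal axis. Points are libraries, and bars give the mean and SD of 3 libraries. For Calr, all 6 aged libraries lie at or below 741 CPM and all 6 young libraries at or above 769.9 CPM, whereas Atf4 and Ddit3 overlap between ages.

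Several ER chaperone genes had less RNA in aged than in young meninges, more of them past the test among injured than among sham mice. Among injured mice 6 of the 10 genes were lower in Aged TBI than in Young TBI at an adjusted p under 0.1 (edgeR quasi-likelihood test), where 10.3% of all genes tested were called lower. Among sham mice 1 of the 10, Calr, was lower in Aged Sham than in Young Sham, with 7.71% of all genes called lower. None was higher with age in either comparison. All 8 lumenal members had a log2 fold change below 0 in both (46.5% of all genes among injured and 48.9% among sham mice), with medians of -0.32 among injured and -0.22 among sham mice, beside medians over all genes of 0.02 and 0.01. An exception was Sdf2l1 among sham mice, whose value of -0.02 turned to 0.027 when libraries were scaled by their totals alone. Aged and young libraries were wholly apart for 7 members among injured mice (16.4% of all genes were apart in this direction) and for 3 among sham mice (14%). Without Aged TBI 3 the calls among injured mice fell to 2 (Hspa5 and Calr), and without Young TBI 1 to 3. They also fell to 3 with library totals as the scale, and to 3 (Hspa5, Calr and Pdia6) without the 3 libraries that stood apart. Hspa5 and Calr kept their call among injured mice under every alternative run. Among sham mice the single call became 4 without Aged Sham 1 (Calr, Hsp90b1, Pdia4 and Pdia6) and 0 without Aged Sham 2, Young Sham 1 or Young Sham 3, and without Aged Sham 3 it passed to Atf4. These are bulk samples, in which fewer cells of a type and less RNA per cell cannot be told apart.

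Markers of other cells moved with these comparisons. Choroid plexus markers summed to 2460, 4158 and 1711 CPM in Aged TBI, against 7736, 4179.7 and 8161 CPM in Young TBI, and 7 of the 8 were lower among injured mice, with a median of -1.38. They summed to 8894, 6462 and 6419.7 CPM in Aged Sham, against 9432, 5333 and 7914 CPM in Young Sham, and 1 of the 8 was lower among sham mice, with a median of -0.069. Of 13 fibroblast markers, 6 were lower and 1 higher among injured mice, and 5 lower and 1 higher among sham mice. Of 12 T cell markers, 11 were higher and 0 lower among injured mice, and 10 higher and 1 lower among sham mice. Over all genes tested, 10.3% were lower and 9.92% higher among injured mice, and 7.71% and 7.89% among sham mice. None of the choroid plexus, fibroblast or T cell markers was at 0 in any library. Other lists moved too. Of 13 neutrophil and marrow precursor markers, 9 were higher among injured and 4 among sham mice, and none was lower. Of 13 arachnoid and pial markers, 5 and 6 were higher in the same order, and none was lower. Of 12 bone markers, 4 were lower among injured mice, and 6 lower and 3 higher among sham mice. The part of any of these lists in the chaperone values was not tested.

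Among the lumenal members, the general chaperones come first. Hspa5 (GRCm38, chr2:34771970-34777547) encodes BiP, the Hsp70 of the ER and the usual readout of the unfolded protein response. It had 483, 546 and 470.4 CPM in Aged TBI libraries, against 678, 607 and 779 CPM in Young TBI libraries. It had 613, 528 and 602 CPM in Aged Sham libraries, against 796, 636 and 660.2 CPM in Young Sham libraries. Every aged library lay below every young library of the same procedure. The fall was -0.46 ± 0.11 among injured mice (it fell by 27.3%, edgeR adjusted p = 0.0172), and the value was -0.26 ± 0.11 among sham mice (adjusted p = 0.151).

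Hsp90b1 (chr10:86690209-86705509) encodes GRP94, the Hsp90 of the ER, whose clients include integrins and Toll-like receptors. Its levels were 345, 361 and 333 CPM in Aged TBI, against 395, 382 and 406 CPM in Young TBI. Aged Sham libraries held 384, 333 and 293 CPM and Young Sham libraries 413, 360.0 and 385 CPM. The injured groups were apart and the sham groups overlapped through Aged Sham 1, the highest of its group. The changes of -0.19 ± 0.09 among injured and -0.20 ± 0.09 among sham mice did not pass the test (edgeR adjusted p = 0.175 and 0.178). Without Aged Sham 1 both passed (-0.20, adjusted p = 0.0613, and -0.30, adjusted p = 0.0204), and without Aged Sham 3 the change among injured mice did (-0.19, adjusted p = 0.0733). Of its annotated exon bases, 15.7% lie on exons of other genes, and since no strand setting of the counting is given its counts are less certain than those of Hspa5 or Calr, whose exons overlap no other gene.

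Calr (chr8:84841850-84846934) encodes calreticulin, a calcium-binding lectin that folds glycoproteins. It had 688, 677 and 587 CPM in Aged TBI, against 907, 843 and 943 CPM in Young TBI. Aged Sham libraries had 741, 695 and 589 CPM, against 899, 769.9 and 844 CPM in Young Sham libraries. No aged library reached the level of any young library. Calr was the member called in both comparisons, at -0.46 ± 0.09 among injured mice (it fell by 27.5%, edgeR adjusted p = 0.00838) and -0.31 ± 0.09 among sham mice (it fell by 19.4%, adjusted p = 0.0555). Among sham mice the call was lost without Aged Sham 2 (adjusted p = 0.104), Aged Sham 3 (0.135), Young Sham 1 (0.166) or Young Sham 3 (0.15), or without the 3 libraries that stood apart (0.154), at values between -0.33 and -0.22.

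Disulfide isomerases, which form and rearrange disulfide bonds in the lumen, came next. Pdia4 (chr6:47796141-47813430), known as ERp72, had 167, 156 and 139 CPM in Aged TBI, against 195, 181 and 201 CPM in Young TBI. It had 175, 148 and 142 CPM in Aged Sham, against 192, 167 and 188 CPM in Young Sham, so that only Aged Sham 1 reached into the young range. Pdia4 fell by 0.32 ± 0.09 among injured mice (edgeR adjusted p = 0.0376), and its value among sham mice was -0.24 ± 0.09 (adjusted p = 0.13). Pdia6 (chr12:17266545-17284770), known as P5, had 267, 245 and 230.2 CPM in Aged TBI and 312, 298 and 305 CPM in Young TBI. Aged Sham libraries had 276, 248 and 215 CPM and Young Sham libraries 314, 276 and 281 CPM, with Aged Sham 1 and Young Sham 2 almost level. It fell by 0.30 ± 0.09 among injured mice (adjusted p = 0.0417), against -0.24 ± 0.09 among sham mice (adjusted p = 0.112). Without the 3 libraries that stood apart Pdia4 lost its call among injured mice (-0.29, adjusted p = 0.124) and Pdia6 did not. The calls of Pdia4 (-0.27, adjusted p = 0.114) and Pdia6 (-0.27, adjusted p = 0.119) were lost without Aged TBI 3, and that of Pdia6 also without Young TBI 1 (-0.30, adjusted p = 0.111). Among sham mice both were called without Aged Sham 1 (Pdia4 at -0.33, adjusted p = 0.0274, and Pdia6 at -0.33, adjusted p = 0.024).

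The smaller lumenal members were less abundant. Sdf2l1 (chr16:17130138-17132383) encodes a partner of BiP and its co-chaperones. Its levels of 31.1, 24.9 and 19.6 CPM in Aged TBI overlapped those of 36.0, 26.9 and 36.1 CPM in Young TBI. In Aged Sham it had 30.2, 30.1 and 30.4 CPM, against 35.6, 27.6 and 28.9 CPM in Young Sham, and the aged values lay inside the young range. Neither change passed the test, at -0.38 ± 0.16 among injured mice (edgeR adjusted p = 0.141) and -0.02 ± 0.16 among sham mice (adjusted p = 0.961). Among injured mice Sdf2l1 passed without Aged TBI 1 (-0.57, adjusted p = 0.044) or without Young TBI 2 (-0.53, adjusted p = 0.0658).

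Creld2 (chr15:88819646-88826683) encodes a lumenal protein with disulfide isomerase activity that is induced by ER stress. It had 53.9, 54.9 and 47.8 CPM in Aged TBI, against 63.8, 60.5 and 63.0 CPM in Young TBI, and 57.1, 52.4 and 56.5 CPM in Aged Sham, against 73.2, 60.2 and 58.7 CPM in Young Sham. All 6 aged libraries lay below all 6 young libraries. Creld2 fell by 0.26 ± 0.09 among injured mice (edgeR adjusted p = 0.0665), and its value among sham mice was -0.21 ± 0.09 (adjusted p = 0.147). Manf (chr9:106838312-106891979) encodes a secreted ER stress protein first described as a neurotrophic factor. Exons of other genes cover 9.25% of its annotated exon bases, so its counts are less certain than those of Hspa5 or Calr. It had 48.1, 56.3 and 50.9 CPM in Aged TBI, against 60.7, 59.5 and 73.9 CPM in Young TBI. In Aged Sham it had 58.2, 49.9 and 55.6 CPM, against 74.6, 57.1 and 58.2 CPM in Young Sham, where the groups overlapped. Manf fell by 0.32 ± 0.12 among injured mice (adjusted p = 0.0921), close to the threshold, and gave -0.21 ± 0.12 among sham mice (adjusted p = 0.282). Without the 3 libraries that stood apart neither was called among injured mice (Creld2 at -0.29, adjusted p = 0.13, and Manf at -0.28, adjusted p = 0.189). The call of Creld2 was also lost without Aged TBI 3 (-0.21, adjusted p = 0.175), Young TBI 1 (-0.25, 0.153) or Young TBI 3 (-0.26, 0.12). That of Manf was also lost without Aged TBI 1 (-0.28, adjusted p = 0.22), Aged TBI 3 (-0.32, 0.177), Young TBI 1 (-0.37, 0.122) or Young TBI 3 (-0.23, 0.254).

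Among the transcription factors, Atf4 (chr15:80255184-80257541) drives amino acid supply and redox genes once PERK or a related kinase is active, and is itself controlled mainly through its translation. It had 140.3, 138 and 129 CPM in Aged TBI, against 138, 139 and 142 CPM in Young TBI. It had 131, 129 and 172 CPM in Aged Sham, against 154, 157 and 145 CPM in Young Sham. Aged Sham 3, the library with bone and pituitary RNA, was the highest of all 12 and the other Aged Sham libraries lay below the young range. With it, the change among sham mice was -0.08 ± 0.09 (edgeR adjusted p = 0.667). Without it, Atf4 was called lower at -0.23 ± 0.05 (adjusted p = 0.0262), as it was without the 3 libraries that stood apart (-0.23 ± 0.06, adjusted p = 0.0509). Among injured mice the value was -0.04 ± 0.09 (adjusted p = 0.817).

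Ddit3 (chr10:127290774-127296288) encodes CHOP, which promotes cell death under prolonged ER stress. Its levels were flat over the design, with 24.9, 24.4 and 27.1 CPM in Aged TBI, 26.7, 23.9 and 24.3 CPM in Aged Sham, 24.6, 27.0 and 26.7 CPM in Young TBI and 24.6, 25.3 and 28.1 CPM in Young Sham. The age effect was -0.03 ± 0.08 among injured mice (edgeR adjusted p = 0.813, 95% confidence interval -0.20 to 0.13) and -0.06 ± 0.08 among sham mice (adjusted p = 0.694, -0.23 to 0.11). Both intervals exclude falls as large as those fitted for Hspa5 or Calr among injured mice. The annotation has 2 overlapping genes of this name, and the table has a second row of it with 0 counts in all libraries, so how reads were shared between them is uncertain.

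**Figure D2:**
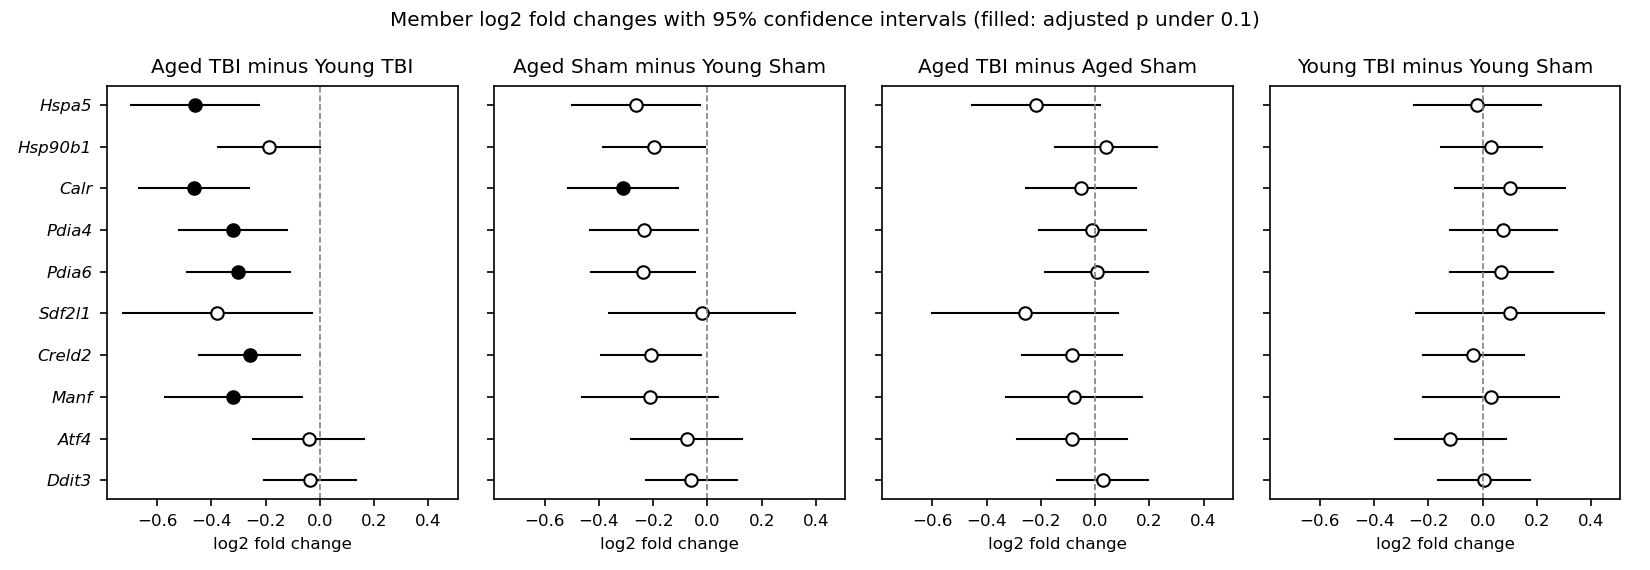
Log2 fold change of each gene in the 4 comparisons of groups (horizontal axis, points), with 95% confidence intervals as lines and genes down the vertical axis. Filled points passed an adjusted p under 0.1, which 6 genes did for Aged TBI minus Young TBI and 1 for Aged Sham minus Young Sham, and none did for either injury comparison.

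The counts of 6 and 1 do not show that age acted differently in injured and sham mice. The interaction of age and injury, which tests that difference, called none of the 10 genes (0% of all genes called by edgeR, 7.6% at an unadjusted p under 0.05). None of the 10 had an unadjusted p under 0.05 for it, and DESeq2 called none of them. Its largest values were -0.36 ± 0.23 for Sdf2l1 (95% confidence interval -0.85 to 0.13) and -0.20 ± 0.15 for Hspa5 (-0.53 to 0.13).

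The age effect was therefore also fitted as the mean of the 2 aged groups minus the mean of the 2 young groups, a contrast chosen after the data had been seen. In it 7 of the 10 genes were lower with age, where 15.7% of all genes tested were called lower. Calr fell to 663 ± 61.9 CPM over the 6 aged libraries, against 868 ± 61.6 CPM over the 6 young libraries (-0.39 ± 0.07, edgeR adjusted p = 0.00151), and Hspa5 to 540.5 ± 59.2 CPM, against 693 ± 77.4 CPM (-0.36 ± 0.08, adjusted p = 0.0052). Pdia4 (-0.28 ± 0.06, adjusted p = 0.0087), Pdia6 (-0.27 ± 0.06, 0.0084), Manf (-0.26 ± 0.08, 0.0342), Creld2 (-0.23 ± 0.06, 0.0151) and Hsp90b1 (-0.19 ± 0.06, 0.0384) followed. Sdf2l1 (-0.20 ± 0.11, 0.223), Atf4 (-0.06 ± 0.07, 0.559) and Ddit3 (-0.05 ± 0.05, 0.577) did not pass. Leaving out any single library gave 7 or 8 calls, and leaving out the 3 libraries that stood apart together gave 8, the added gene being Atf4 (-0.13 ± 0.05, adjusted p = 0.0592).

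No effect of injury on these genes passed the tests 1.5 months later. In young mice none of the 10 was called between Young TBI and Young Sham by edgeR (0.00548% of all genes called) or by DESeq2, and none had an unadjusted p under 0.05, where 4.15% of all genes did. The values ran from -0.12 ± 0.09 for Atf4 to 0.10 ± 0.16 for Sdf2l1, with Calr at 0.10 ± 0.09. Atf4 was the only member whose young groups were apart, lower in Young TBI (5.82% of all genes were apart in this direction). The interval for Hspa5 was -0.25 to 0.21. In aged mice none of the 10 was called between Aged TBI and Aged Sham by either tool (1.65% of all genes called by edgeR), and again none had an unadjusted p under 0.05 (14.4% of all genes). Hspa5 was the lowest of the abundant members, at -0.22 ± 0.11 (adjusted p = 0.386, interval -0.45 to 0.02), and Sdf2l1 gave -0.26 ± 0.16 (adjusted p = 0.492). Choroid plexus markers moved with this comparison too, 5 of 8 being lower in Aged TBI than in Aged Sham, and their part in these values was not tested.

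The other genes of the folding pathway were counted from lists. Of 17 other ER chaperones and co-chaperones, 2 were lower among injured mice and 3 among sham mice, with medians of -0.06 and -0.07, nearer to that of all genes than the members were. Dnajb11, a co-chaperone of BiP, fell by 0.31 ± 0.07 among injured mice (edgeR adjusted p = 0.0137), as did Hyou1, its nucleotide exchange factor (-0.36 ± 0.10, adjusted p = 0.0305). Hyou1 averaged 127 ± 4.09 CPM in Aged TBI and 162 ± 22.5 CPM in Young TBI (SD, n = 3 libraries each). Among sham mice the 3 were Hspa13 (-0.24 ± 0.06), Cnpy2 (-0.23 ± 0.06) and Cnpy3 (-0.19 ± 0.05). Calnexin (Canx), the membrane-bound relative of calreticulin, gave -0.08 ± 0.05 among injured mice and -0.07 ± 0.05 among sham mice, neither called. Dnajb9, a target of the IRE1 branch, gave 0.09 ± 0.13 and 0.11 ± 0.13 and was not called either.

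Of 19 other disulfide and redox enzymes, 3 were lower among injured mice, and 4 were lower and 1 higher among sham mice. P4hb, which is both a disulfide isomerase and a subunit of prolyl 4-hydroxylase, fell in both comparisons, by 0.15 ± 0.05 (edgeR adjusted p = 0.0575) and 0.18 ± 0.05 (adjusted p = 0.0403). Creld1, a relative of Creld2, was lower among injured mice (-0.33 ± 0.07), and the oxidase gene Ero1lb was higher among sham mice (0.34 ± 0.11). Of 21 genes of N-glycosylation and glycoprotein folding, 6 were lower among injured and 8 among sham mice and none was higher. They included the oligosaccharyltransferase subunit genes Ostc among injured mice (-0.45 ± 0.07, adjusted p = 0.00231) and Ost4 among sham mice (-0.44 ± 0.07, adjusted p = 0.0037). Of 24 genes of ER export and retrieval, 8 were lower in each comparison, with 1 higher among injured mice. The receptor gene Kdelr3, which returns lumenal proteins such as BiP from the Golgi, fell by 0.52 ± 0.14 among injured mice and by 0.66 ± 0.14 among sham mice. Translocation (23 genes, with 3 lower and 1 higher among injured and 2 lower and 1 higher among sham mice) and ER-associated degradation (23 genes, with 2 lower and 2 higher, and 0 lower and 1 higher) lay closer to the shares of all genes. Derl3, a degradation factor, rose by 1.40 ± 0.26 among injured and 1.22 ± 0.25 among sham mice at a low level, 5.85 ± 1.94 CPM in Aged TBI against 2.18 ± 0.572 CPM in Young TBI.

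The genes of the sensors IRE1, ATF6 and PERK showed no call for age, and neither did Xbp1. Xbp1 had 186 ± 7.84 CPM in Aged TBI and 191 ± 5.09 CPM in Young TBI, and 199 ± 20.9 CPM in Aged Sham against 177 ± 2.02 CPM in Young Sham (-0.04 ± 0.07 and 0.17 ± 0.07). Its spliced form cannot be seen in counts per gene. Ern1, the gene of IRE1, gave 0.14 ± 0.10 in each comparison, Atf6 gave 0.01 ± 0.08 and 0.15 ± 0.08, and Eif2ak3, the gene of PERK, gave -0.13 ± 0.07 and -0.16 ± 0.07, for injured and then sham mice, with none of these called. Of all 15 sensors and their transcription factors, 5 were lower among injured and 4 among sham mice. The largest was Creb3l1, known as a regulator of collagen secretion, with 36.6 ± 8.96 CPM in Aged TBI against 73.0 ± 5.21 CPM in Young TBI (-0.99 ± 0.14, edgeR adjusted p = 0.00144) and -0.90 ± 0.13 among sham mice (adjusted p = 0.0028). Of the 4 kinases that phosphorylate eIF2α, Eif2ak2, which responds to double-stranded RNA, was higher among injured mice (0.31 ± 0.09, adjusted p = 0.0359) and none was called among sham mice.

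Targets of ATF4 and CHOP did not move one way. Of 29 tested, 4 were lower and 1 higher among injured mice and 4 were lower and 3 higher among sham mice, with medians of -0.04 and 0.01. The list summed to between 1202 and 1776 CPM in Aged Sham, a wider range than in the other groups. It summed to 1252 to 1370 CPM in Aged TBI, 1275 to 1323 CPM in Young TBI and 1301 to 1352 CPM in Young Sham. The part of single libraries in these counts was not tested. Slc7a11, the cystine transporter, rose by 1.10 ± 0.13 among injured mice (edgeR adjusted p = 0.000884) and by 1.14 ± 0.13 among sham mice (adjusted p = 0.000934). It averaged 52.9 ± 3.36 CPM in Aged TBI and 54.9 ± 6.26 CPM in Aged Sham, against 24.8 ± 3.40 CPM in Young TBI and 24.9 ± 4.33 CPM in Young Sham. The proline synthesis genes Aldh18a1, among injured mice (-0.52 ± 0.10), and Pycr1, among sham mice (-0.80 ± 0.16), fell. Of 18 cytosolic and mitochondrial heat shock chaperones outside the ER, 7 were lower among injured and 4 among sham mice, with medians of -0.18 in both. Dnaja1 fell by 0.31 ± 0.09 and 0.30 ± 0.09.

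**Figure D3:**
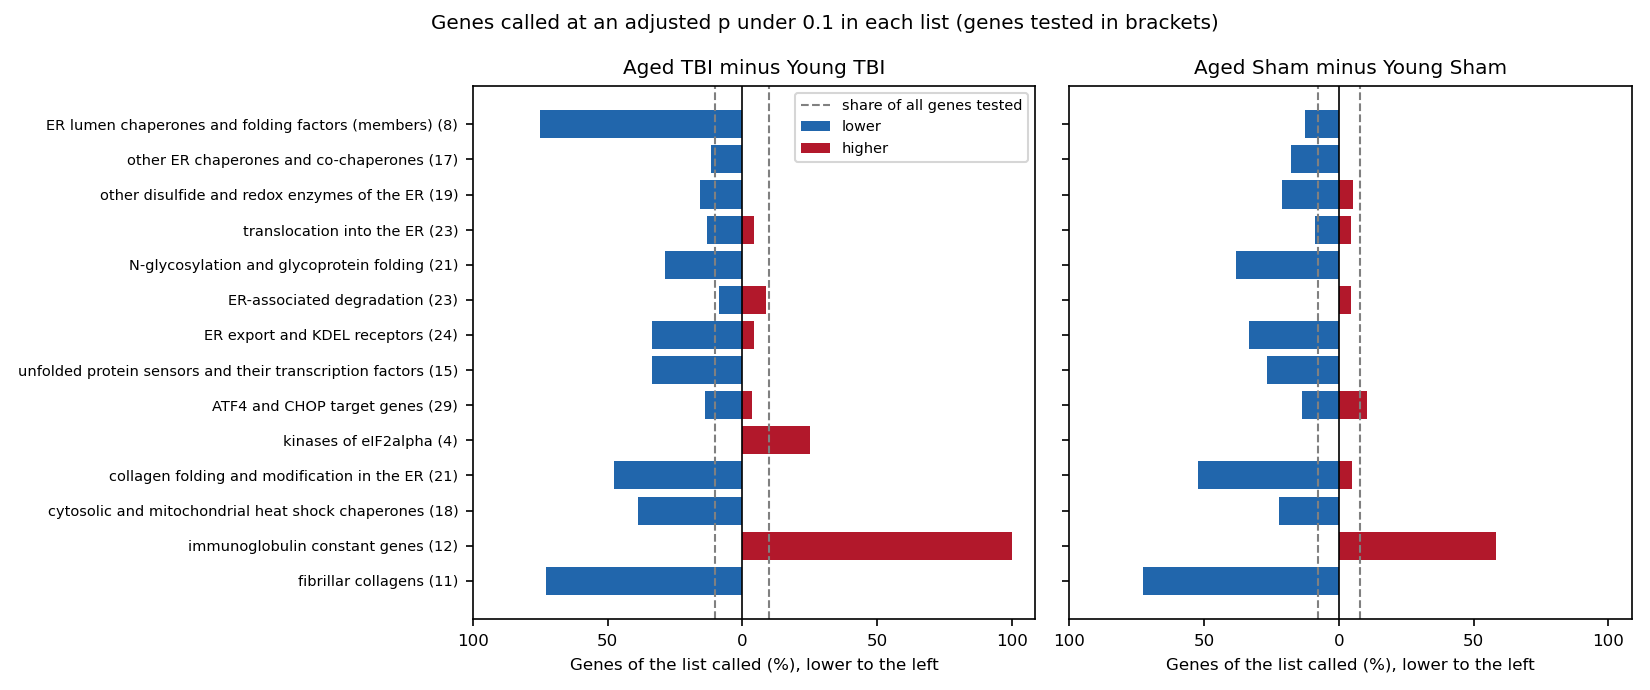
Share of each gene list called at an adjusted p under 0.1 for age (horizontal axis, in percent), with lower genes to the left of 0 and higher genes to the right, and the number of genes tested in brackets. Dashed lines give the share of all genes tested, 10.3% lower and 9.92% higher among injured mice and 7.71% lower and 7.89% higher among sham mice. Collagen folding and fibrillar collagen genes reach far to the left, and immunoglobulin genes to the right, in both panels.

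Collagen and antibody are the main secreted loads that were compared with the chaperones. Fibrillar collagen genes were lower with age, 8 of 11 in each comparison. Col1a1 had 2825 ± 399 CPM in Aged TBI against 6367 ± 643 CPM in Young TBI, and 2773 ± 127 CPM in Aged Sham against 6296 ± 921 CPM in Young Sham, changes of -1.17 ± 0.12 and -1.18 ± 0.12 (edgeR adjusted p = 0.000511 and 0.000531). Col3a1 fell by 1.25 ± 0.18 and 1.12 ± 0.18. Helpers of collagen folding went the same way, with 10 of 21 lower and none higher among injured mice and 11 lower and 1 higher among sham mice. Serpinh1, the collagen chaperone HSP47, had 579 ± 67.7 CPM in Aged TBI against 1075 ± 79.0 CPM in Young TBI (-0.89 ± 0.11, adjusted p = 0.000924), and 566 ± 81.9 CPM in Aged Sham against 988 ± 73.2 CPM in Young Sham (-0.80 ± 0.11, adjusted p = 0.00191). Within aged mice 3 of these 21 helpers, Fkbp7 (0.34 ± 0.08), Crtap (0.31 ± 0.07) and P3h3 (0.23 ± 0.05), were higher in Aged TBI than in Aged Sham.

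Antibody genes went the other way. All 12 immunoglobulin constant genes were higher with age among injured mice and 7 of 12 among sham mice. Igkc, the kappa light chain, averaged 769 ± 188 CPM in Aged TBI against 84.1 ± 13.2 CPM in Young TBI (3.19 ± 0.22, edgeR adjusted p = 5.72e-05), and 659 ± 22.7 CPM in Aged Sham against 133 ± 37.7 CPM in Young Sham (2.30 ± 0.21, adjusted p = 0.0003). Igha rose by 3.70 ± 0.32 and 3.49 ± 0.31, Ighm by 2.82 ± 0.36 and 2.12 ± 0.35, and Jchain, which joins antibody polymers, by 3.11 ± 0.32 and 1.91 ± 0.30, for injured and then sham mice. Plasma cell markers, 12 genes, summed to between 300 and 515 CPM in Aged TBI and 316 and 386 CPM in Aged Sham, against 179 to 191 CPM in Young TBI and 168 to 215 CPM in Young Sham. Fibroblast markers summed to between 3020 and 3576 CPM in the 6 aged libraries, against 3969 to 4296 CPM in the 6 young libraries. Neither list had a gene at 0, and the part of either cell type in the chaperone values was not tested.

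The summed CPM of the 8 lumenal members was 2083, 2121 and 1878 in Aged TBI, against 2648, 2457 and 2807 in Young TBI. It was 2334, 2083 and 1984 in Aged Sham, against 2797, 2354 and 2505 in Young Sham. The aged libraries thus all lay below the young ones, although Aged Sham 1 and Young Sham 2 came close. Summed collagen, over 44 rows, was 0.568 of the young mean in both comparisons, whereas the lumenal members were at 0.769 among injured and 0.836 among sham mice. Per 1000 CPM of collagen the aged meninges therefore held more chaperone RNA, 127 ± 3.10 CPM in Aged TBI against 93.8 ± 10.3 CPM in Young TBI and 139 ± 17.0 CPM in Aged Sham against 94.9 ± 12.2 CPM in Young Sham. The lowest aged value, 121 CPM in Aged Sham 3, was above the highest young value, 106 CPM in Young TBI 3. This direction follows from the fall in collagen, since any gene that fell less than collagen rises on this scale. A gene at the median of all genes (0.02 among injured and 0.01 among sham mice) would rise further than the lumenal members did. Summed immunoglobulin, over 12 constant and 348 variable rows, was 10.1 times higher in Aged TBI than in Young TBI and 5.41 times higher in Aged Sham than in Young Sham, so that a CPM of antibody was matched by 0.534 ± 0.159 and 0.631 ± 0.066 CPM of lumenal members in Aged TBI and Aged Sham, against 6.58 ± 1.25 and 4.43 ± 1.85 CPM in Young TBI and Young Sham.

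**Figure D4:**
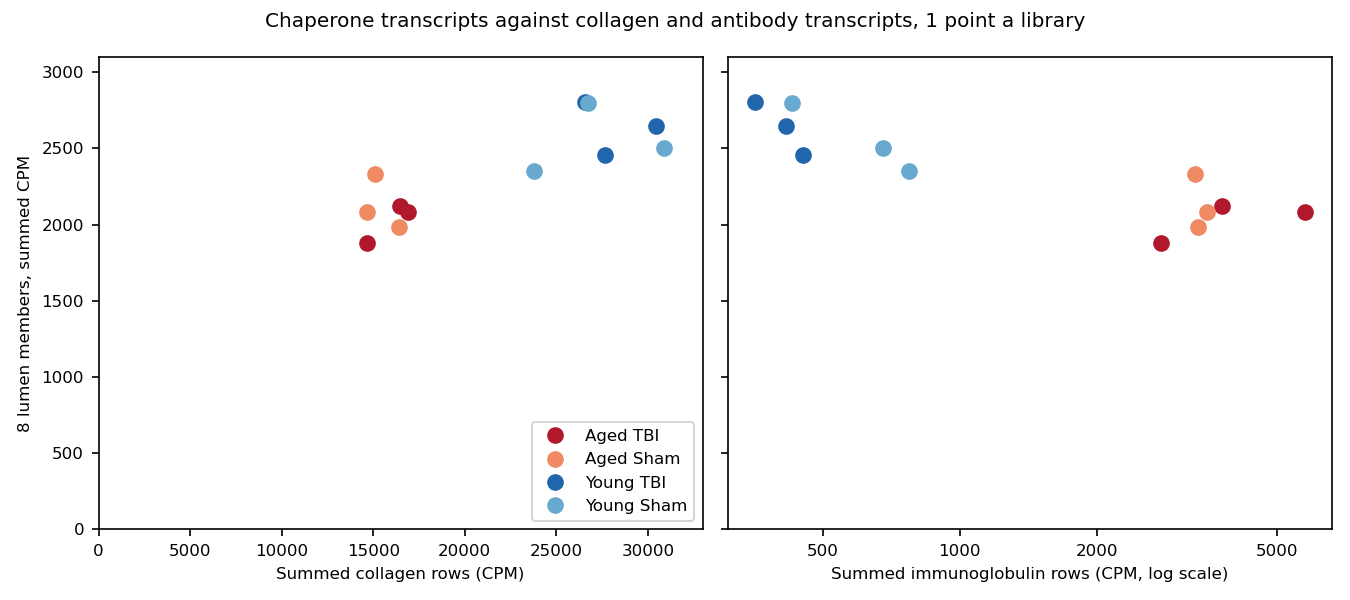
Summed CPM of the 8 lumenal members (vertical axis, from 0) against summed CPM of collagen rows (left, from 0) and of immunoglobulin rows (right, log scale), with a point for each library and a colour for each group. Aged libraries sit at 1878 to 2334 CPM with less collagen and more antibody, and young libraries at 2354 to 2807 CPM.

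Because age separated the libraries, each gene was related to collagen and to antibody output within the 6 aged and within the 6 young libraries, 40 relations in all. None passed an adjusted p under 0.1 (exact permutation test over 720 pairings, two-sided, Benjamini-Hochberg over the 40, lowest adjusted p = 0.167 for r and 0.333 for rho). Collagen gave r between -0.16 and 0.52 for the lumenal members in aged libraries and between -0.16 and 0.55 in young libraries. Antibody gave r between -0.44 and 0.56 in aged libraries, whereas in young libraries all 8 lumenal members had a negative r, between -0.91 and -0.52. The strongest by p was Calr with antibody in young libraries (r = -0.91, exact permutation p = 0.00417, adjusted p = 0.167, rho = -0.94, p = 0.0167, adjusted p = 0.333). It gave r = -0.90 without Young Sham 2 and Young Sham 3, the libraries farthest from the median output, whereas without them Creld2 gave r = 0.09 in place of -0.52 and Pdia6 gave -0.08 in place of -0.91. These 8 values are not independent, since the members moved together across libraries. The young libraries also span both procedures, with 407 ± 49.2 CPM of antibody in Young TBI and 625 ± 178 CPM in Young Sham. Deviations from group means were also related over all 12 libraries. R with antibody was then -0.01 for Calr, 0.10 for Pdia4, 0.05 for Pdia6 and 0.16 for Sdf2l1. It was -0.51 for Hspa5, -0.26 for Hsp90b1, -0.25 for Creld2 and -0.68 for Manf. The part of injury in these relations was not tested. Young TBI 3, Young TBI 1 and Young Sham 1 had the least antibody of the young libraries (355, 414 and 428 CPM). They also had the lowest total counts of all libraries, and the part of depth in these relations was not tested. Atf4 gave the highest r with collagen in aged libraries (r = 0.63, exact permutation p = 0.0931, adjusted p = 0.62, rho = 0.83, p = 0.0583, adjusted p = 0.467, r = 0.71 without Aged TBI 1 and Aged Sham 2), and Aged Sham 3 was its highest library.

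The lumenal members lay closer than the transcription factors to the mean pattern of the 10 genes, of which they make up 8. Pearson's r of a member to the mean of the 10, over 12 libraries and described with no test since each gene is part of the mean, was 0.95 for Pdia4, 0.94 for Calr and Hspa5, 0.92 for Creld2, 0.89 for Pdia6 and Manf, 0.85 for Hsp90b1 and 0.72 for Sdf2l1, against 0.26 for Atf4 and 0.23 for Ddit3. Young TBI 3, Young TBI 1 and Young Sham 1 held the 3 highest values of all 8 lumenal members, and Aged TBI 3 was among the 3 lowest for all 8. Those young libraries also had the lowest total counts of the 12 (8092374, 10672779 and 10734413, against 12216860 or more elsewhere). The part of depth in these values was not tested. Of the 12498 other genes with a mean of at least 5 CPM, the most alike over the 12 libraries included Hsp90ab1 (r = 0.96), the cytosolic relative of Hsp90b1, Vapb (0.95), Rpn1 (0.95), a subunit of the oligosaccharyltransferase, Fam222a (0.94), Uba1 (0.94), Oxct1 (0.94) and Isoc2a (0.94). All of these values include the split of the 12 libraries by age.

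Of the 32 other genes that hold the ER stress element, 16 were tested, and for age 1 was lower and 2 were higher in each comparison. Their values were below 0 for 10 of 16 among injured mice (median -0.093) and for 7 of 16 among sham mice (median 0.034). Syvn1, a ubiquitin ligase of ER-associated degradation, was the lower one among injured mice (-0.41 ± 0.08, edgeR adjusted p = 0.00826), and Derl3 and Pan2 were the higher ones in both. Of the 5 members with the element, Hspa5, Calr, Pdia6 and Creld2 were called lower among injured mice. Hsp90b1, which holds 2 matches, was not (-0.19 ± 0.09, edgeR adjusted p = 0.175). Of the members with a promoter sequence and no match, Pdia4 was called, and Sdf2l1, Atf4 and Ddit3 were not. A relation between the element and the falls was not tested.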

How the data were processed

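Meningeal RNA of 12 libraries was analysed from a deposited table of raw counts per gene, which the authors made by aligning reads to mm10 with HISAT2, filtering with SAMtools and counting with HTSeq. The sources used here do not give versions, annotation release or strand setting. All 12 columns of values were used and 0 were left unused. Reads of overlapping genes may have been split or dropped, and a count of 0 allows up to 3 counts, for counting error only.

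Genes were kept by filterByExpr of edgeR 4.0.16 in R 4.3.3, which left 18238 genes with 99.8% of counts. Libraries were scaled by TMM (factors 0.969 to 1.036), and contrasts were taken from 1 quasi-likelihood model of the 4 group means. P-values were two-sided and Benjamini-Hochberg adjusted over all genes tested, and 0.1, which the study also used, was the threshold for a call. DESeq2 1.42.0, the tool of the study, was run as an alternative. Output was the summed CPM of collagen or immunoglobulin rows, and relations to it used log2 CPM with a prior count of 2 and exact permutation of libraries. Scripts were tested on simulated data. Coordinates of genes came from GENCODE M21 on GRCm38, and exon lengths from the union of annotated exons.

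The 10 genes, the lists and the tests were chosen with earlier results of these data known. All 10 genes are named. From each list, up to 3 called genes per contrast could be named, those with the largest change whose libraries did not overlap and whose higher group averaged 1 CPM or more, besides Xbp1, Ern1, Eif2ak3, Atf6, Dnajb9, Hyou1, Canx, P4hb, Serpinh1, Col1a1, Col3a1, Igkc, Igha, Ighm and Jchain. Pan2 was chosen after its values were seen. The labels give no batch. Replicates of a group differed by more than sampling noise, and no library was counted as a copy of another. Haemoglobin genes were not analysed here. 1 gene that the rule on alike patterns names is not reported here. Alternatives covered scaling, the low-count filter, the test, the samples in the fit, a replicate block, the threshold and leaving out libraries.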

Additional observations from a re-analysis of the deposited data

How the results depend on the processing

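The members called for age among injured or among sham mice changed by -16.4% to -27.5%, with 3 pools a group. How far depth limits these calls was not tested. The calls of Hspa5 and Calr among injured mice held under all alternatives run, and those of Pdia4, Pdia6, Creld2 and Manf did not. The number of members lower among sham mice, 1, became 0 with library totals alone, 3 with no filter on low counts, 2 with DESeq2, 0 with the 2 groups only, and 0 at an adjusted p under 0.05, and ranged from 0 to 4 without single replicates. Among injured mice, 6 became 3 with library totals alone and 3 without the 3 libraries that stand apart (an alternative chosen after seeing the data), and 4 at an adjusted p under 0.05, and ranged from 2 to 7 without single replicates. Other settings added calls. Hsp90b1 was called with the 2 groups only (edgeR adjusted p = 0.0379), and Sdf2l1 with no filter on low counts (edgeR adjusted p = 0.0884). For the averaged age effect, 7 ranged from 7 to 8 without single replicates and was 6 with library totals, which took the call of Hsp90b1 (-0.13, adjusted p = 0.154). The counts of 0 for injury and for the interaction were 0 under every alternative. The cause of each change was not tested.

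Library totals moved the share of all calls that were higher to 71.8%, against 49.1% with TMM, among injured mice, and to 66.3%, against 50.6%, among sham mice, and the median of all genes by less than 0.1. Over all genes, injury in aged mice gave 301 calls with edgeR, 636 with DESeq2, 70 with the 2 groups only and 56 with the replicate block, and injury in young mice 1, 8, 3 and 1. Age among sham mice gave 2845, 2571, 1787 and 2476. The interaction gave 0 calls with edgeR and 4 with DESeq2.

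The replicate numbers did not pair the samples, as deviations of same-numbered libraries correlated at -0.18 to 0.11. With the replicate block 3 members were lower among sham mice and 6 among injured mice.

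Changes of sign touched 19 single-gene results, all uncalled and none above 0.0851 in size. With library totals these were Sdf2l1 among sham mice (0.0268), Atf4 (0.0341) and Ddit3 (0.0405) among injured mice, Ddit3 for injury in young mice (-0.00951) and for averaged age (0.0141), and Pdia4 for injury in aged mice (0.00369). DESeq2 gave -0.000625 for Pdia6 in the injury comparison of aged mice and -0.000349 for the Hsp90b1 interaction, the 2 groups only gave -0.00161 for the same Pdia6 comparison, and the filter of 1 CPM -0.00107 for the Hsp90b1 interaction. Without the 3 libraries that stand apart, signs changed for Ddit3 among injured mice (0.00688) and for injury in young mice (-0.00949), Manf for injury in young mice (-0.0703), Hsp90b1 (-0.0802), Pdia6 (-0.0756) and Atf4 (0.0524) for injury in aged mice, and Hsp90b1 for the interaction (-0.0911). Without single replicates, Sdf2l1 among sham mice ranged from -0.0947 to 0.093. For injury in young mice the ranges were -0.11 to 0.093 for Hspa5, -0.00779 to 0.0902 for Hsp90b1, -0.0834 to 0.0779 for Creld2, -0.0631 to 0.17 for Manf and -0.0249 to 0.0726 for Ddit3. For injury in aged mice they were -0.0488 to 0.146 for Hsp90b1, -0.142 to 0.0194 for Calr, -0.0745 to 0.0839 for Pdia4, -0.0824 to 0.0952 for Pdia6, -0.163 to 0.0633 for Atf4 and -0.0221 to 0.0793 for Ddit3. For the interaction they were -0.0809 to 0.105 for Hsp90b1, -0.152 to 0.0174 for Pdia6, -0.0507 to 0.184 for Atf4 and -0.0462 to 0.0666 for Ddit3.

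Of the 40 relations to output, 18 changed sign, and none was called. Without the 2 libraries farthest from the median, r with collagen in young libraries became -0.419 for Hsp90b1, -0.113 for Calr, -0.0633 for Pdia4 and -0.44 for Ddit3, and in aged libraries -0.0484 for Pdia4. R with antibody became 0.0883 for Creld2 and -0.177 for Ddit3 in young libraries, and -0.205 for Pdia4, -0.0729 for Pdia6, -0.914 for Sdf2l1, -0.519 for Creld2 and -0.251 for Atf4 in aged libraries. With fewer genes as output (Col1a1, Col1a2 and Col3a1, or Igkc), r with collagen became 0.00516 for Hspa5 in young libraries and 0.0718 for Hsp90b1, 0.184 for Calr and 0.147 for Pdia6 in aged libraries. With library totals alone it became -0.00306 for Hspa5 and -0.0896 for Manf in aged libraries.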
